A study of Mus musculus with 9 samples.

Results

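The 10 genes described here handle zinc and manganese in the cell, and they were followed across mouse intestinal stem cell colonies grown in 3 kinds of gel. They are 4 members of the SLC30 family (Slc30a10, Slc30a1, Slc30a2 and Slc30a4), 3 of the SLC39 family (Slc39a4, Slc39a5 and Slc39a14), the metallothioneins Mt1 and Mt2, and the zinc-sensing transcription factor Mtf1. They were matched by symbol, are 10 of 46517 genes in the count tables, and all 10 passed the filter on low counts that kept 14870 genes. Slc30a10 was chosen on its large rise in non-degradable PEG, so its values are given as a description with no test, and the other 9 genes were tested. Polyadenylated RNA was sequenced after 4 days in non-degradable polyethylene glycol (PEG), in degradable PEG or in Matrigel, with 3 libraries per matrix and 9 in all. PEG is a synthetic polymer that forms a hydrogel, and Matrigel is a basement membrane preparation secreted by a mouse tumour. Colonies in all 3 matrices grew from dissociated cells in medium with CHIR99021 (an inhibitor of GSK3), valproic acid, EGF, noggin and R-spondin, so every group carried these agents. The sources used here do not give the strain, the age of the mice, the make-up of the gels or whether replicates were separate cultures, and p-values therefore measure only the spread between these libraries, which may be technical.

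Zinc enters the cytosol through SLC39 (ZIP) transporters and leaves it, toward the outside or into vesicles, through SLC30 (ZnT) transporters. Metallothioneins are small cysteine-rich proteins that bind zinc in the cytosol. When free zinc rises, MTF1 binds metal response elements (MREs) and switches on metallothionein genes and Slc30a1. The intestine is where dietary zinc and manganese are taken up. Slc30a10 stands apart in its family because its protein exports manganese, and its loss in people and mice leads to manganese overload. Slc39a14 imports manganese as well as zinc and iron.

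The libraries held 38.0 M to 47.2 M reads assigned to genes, and log2 fold changes had a standard error of 0.112 at the median gene. The 5 stem cell markers (Lgr5, Ascl2, Olfm4, Smoc2 and Axin2) were read in every matrix, with a summed level of 1809 to 1914 CPM (counts scaled to the size of each library) in non-degradable PEG, 2179 to 2353 CPM in degradable PEG and 2682 to 2844 CPM in Matrigel. Most of this sum was Smoc2, averaging 1157 CPM in non-degradable PEG, 1386 CPM in degradable PEG and 1944 CPM in Matrigel. Against Matrigel, edgeR called 1 higher (Ascl2) and 3 lower in non-degradable PEG, beside 9.71% and 7.13% of all genes. In degradable PEG it called 1 higher (Ascl2) and 1 lower, beside 7.42% and 4.79%. Lgr5 was not called in either. Markers of other cell types also differed. The 9 Paneth cell markers summed to 312.6 to 499.8 CPM in non-degradable PEG, 366.7 to 404.7 CPM in degradable PEG and 846.4 to 1692 CPM in Matrigel. The 9 enterocyte markers summed to 981 to 1225 CPM in non-degradable PEG, 924.8 to 979.1 CPM in degradable PEG and 905.2 to 1006 CPM in Matrigel. Of the 4 blood cell markers, Ptprc and Hbb-bs were at 0 in every library, and the summed level was at most 0.0526 CPM. In bulk RNA, fewer cells of a type and less RNA per cell cannot be told apart.

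The promoters of 4 members are shown because MTF1 is known to act on Mt1, Mt2 and Slc30a1 through MREs, and because Slc30a10 is the gene with the widest range of levels between matrices. RefSeq windows on GRCm38.p6, from base -250 to base 50 around a RefSeq start, were matched for 8 members, and Slc39a4 and Slc39a14 had no entry. The MRE core was searched on both strands as TGCACNC or TGCGCNC, 2 versions of 7 letters that exclude each other at any one position. Matches are in capitals in the first 236 bases of each window, printed 5′ to 3′ on the gene's own strand. All 4 genes lie on the plus strand, at chr1:185454598-185454833 for Slc30a10, chr1:191906531-191906766 for Slc30a1, chr8:94178839-94179074 for Mt1 and chr8:94172368-94172603 for Mt2.
Slc30a10: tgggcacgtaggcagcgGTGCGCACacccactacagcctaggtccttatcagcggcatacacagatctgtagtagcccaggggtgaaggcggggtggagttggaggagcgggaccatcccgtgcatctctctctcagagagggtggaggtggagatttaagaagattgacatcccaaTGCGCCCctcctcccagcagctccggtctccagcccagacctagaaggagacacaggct
Slc30a1: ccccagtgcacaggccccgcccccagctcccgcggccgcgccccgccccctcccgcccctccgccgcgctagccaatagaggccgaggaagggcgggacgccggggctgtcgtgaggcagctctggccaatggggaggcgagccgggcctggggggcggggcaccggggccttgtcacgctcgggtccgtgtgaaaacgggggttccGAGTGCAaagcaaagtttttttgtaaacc
Mt1: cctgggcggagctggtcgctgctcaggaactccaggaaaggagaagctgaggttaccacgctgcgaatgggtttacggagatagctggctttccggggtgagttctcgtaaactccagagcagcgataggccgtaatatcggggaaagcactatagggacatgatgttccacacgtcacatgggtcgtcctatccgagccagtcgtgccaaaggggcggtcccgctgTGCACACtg
Mt2: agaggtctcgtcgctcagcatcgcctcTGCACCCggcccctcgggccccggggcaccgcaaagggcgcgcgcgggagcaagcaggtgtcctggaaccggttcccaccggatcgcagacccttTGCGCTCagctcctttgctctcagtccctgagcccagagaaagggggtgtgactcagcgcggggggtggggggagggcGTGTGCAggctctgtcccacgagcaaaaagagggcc

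Over the whole window of 300 bases, Mt2 held 4 matches to the core, Mt1, Slc30a10 and Slc30a4 held 3 each, and Slc30a1 and Slc30a2 held 2 each. Slc39a5 held 1 in its window at chr10:128401239-128401474 and 0 in another at chr10:128400481-128400716. For this other Slc39a5 window and those of Slc30a2 and Mtf1, the first 236 bases lay wholly inside the annotated gene. In Slc30a10 the pair nearest the upstream end overlaps on opposite strands and forms a single run of capitals. Mt1 carries 2 of its matches past the RefSeq start used for its window and outside the printed stretch, and Mt2 and Slc30a1 carry 1 each there. Bases beyond the windows and starts without a window were not searched, so positions and counts hold only for these windows. The window of Mtf1 had no match, which says only that these letters are not in it. Of 32851 mouse windows of the same length, 25.7% held at least 1 match, 7.11% at least 2, 1.97% at least 3 and 0.517% at least 4. A match of these letters is a description of the sequence and no evidence that MTF1 binds there.

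Slc30a10, which codes for the manganese exporter ZnT10, was close to silent in Matrigel and was read in both PEG gels. The gene (ENSMUSG00000026614) lies on chromosome 1 from 185454848 to 185468762 (GRCm38). It had 18.9, 16.6 and 25.0 CPM in non-degradable PEG, 5.52, 4.45 and 8.48 CPM in degradable PEG, and 0.282, 0.1895 and 0.352 CPM in Matrigel (replicates 1, 2 and 3). These levels rest on 715, 653 and 1091 reads in non-degradable PEG, 210, 180 and 328 reads in degradable PEG, and 11, 9 and 16 reads in Matrigel. No library of a matrix reached into the range of another, and replicate 3 was the highest and replicate 2 the lowest in each of the 3 matrices. Mean CPM in non-degradable PEG was 73.5 times that in Matrigel (log2 fold change 6.19) and 3.28 times that in degradable PEG (1.71). Mean CPM in degradable PEG was 22.4 times that in Matrigel (4.48). The comparisons of the PEG gels with Matrigel share the Matrigel libraries, and all 3 values come from libraries that served to choose the gene.

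The lincRNA gene Gm2061 lies on the opposite strand and shares 533 exon bases with Slc30a10. Gm2061 had 4.36, 2.87 and 8.69 CPM in non-degradable PEG, 1.45, 1.09 and 2.74 CPM in degradable PEG, and 0.0512, 0.168 and 0.154 CPM in Matrigel. It was thus highest in the same matrix as Slc30a10, at a lower level. Of the 50-base stretches in the Slc30a10 transcripts, 8.36% also occur in Gm2061. The library kit keeps strand, but the sources used here do not give the strand setting of the counting, and the share of reads from each gene was not tested.

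**Figure D1:**
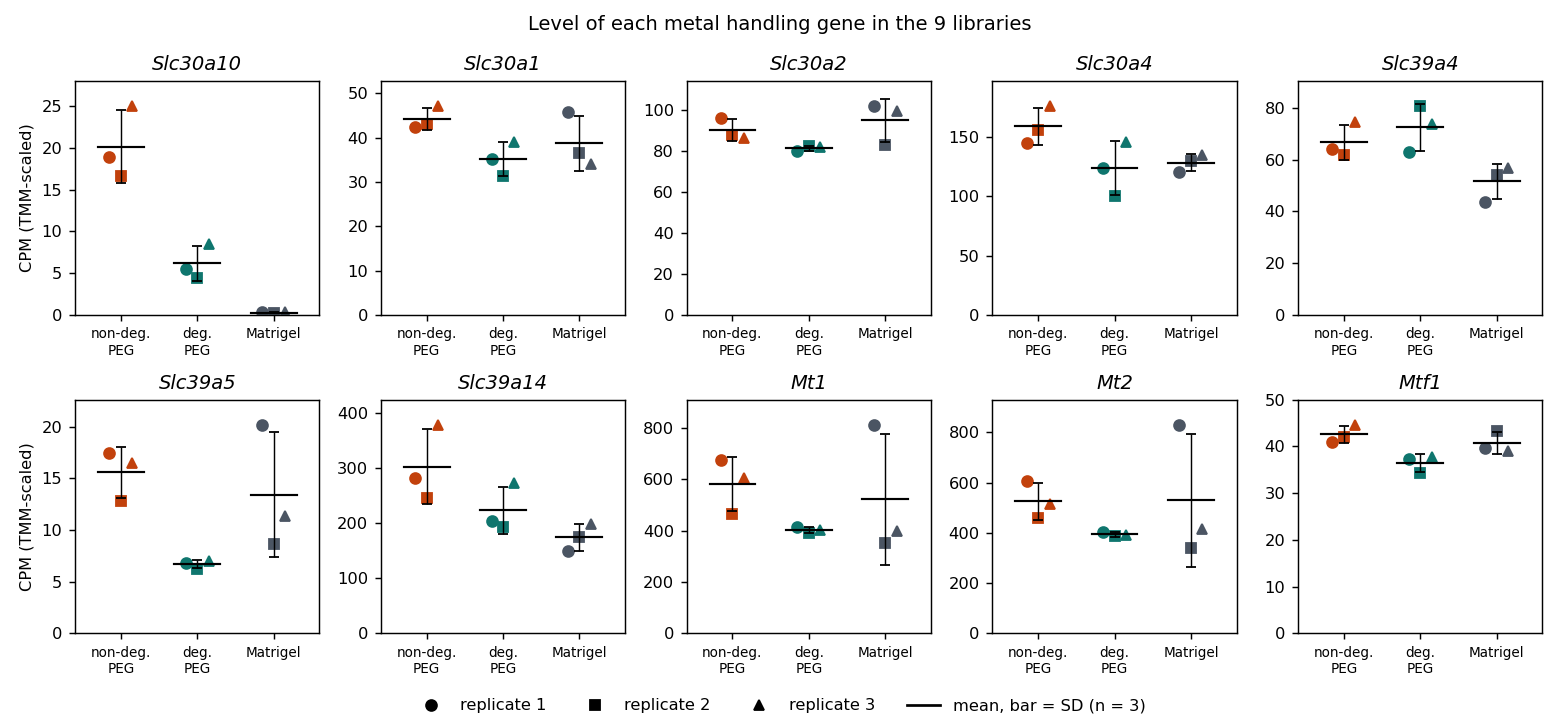
Level of each of the 10 genes in CPM (y axis, from 0) in the 3 libraries of non-degradable PEG, degradable PEG and Matrigel (x axis), with symbols for replicates and a bar for the mean and SD. Slc30a10 separates the 3 matrices, Slc39a14 is at 245.8 to 378.6 CPM in non-degradable PEG against 149.1 to 198.1 CPM in Matrigel, and Mt1, Mt2 and Slc39a5 have 1 high Matrigel library.

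Counts of calls give the frame for the other 9 members. An edgeR quasi-likelihood test with Benjamini-Hochberg adjustment over all 14870 genes called 16.8% of genes in non-degradable PEG against Matrigel, 9.71% higher and 7.13% lower. Of the 9 tested members, 1 rose (Slc39a14) and 0 fell by edgeR (unadjusted p under 0.05 for 3 higher and 0 lower, DESeq2 calls for 2 higher and 0 lower), with a median log2 fold change of 0.19 beside -0.0021 over all genes. In degradable PEG against Matrigel the test called 12.2% of genes, 7.42% higher and 4.79% lower, and among the members 1 rose (Slc39a4) and 1 fell (Slc39a5), with a median of -0.16 beside -0.0163. In non-degradable against degradable PEG it called 1.28% of genes, 0.814% higher and 0.464% lower, and 1 member was higher (Slc39a5) and 0 lower (unadjusted p under 0.05 for 5 higher and 0 lower, DESeq2 calls for 1 higher and 0 lower), with a median of 0.36 beside 0.0033. With 9 members, shares of 0 to 2 calls are too coarse to set the members apart from all genes.

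**Figure D2:**
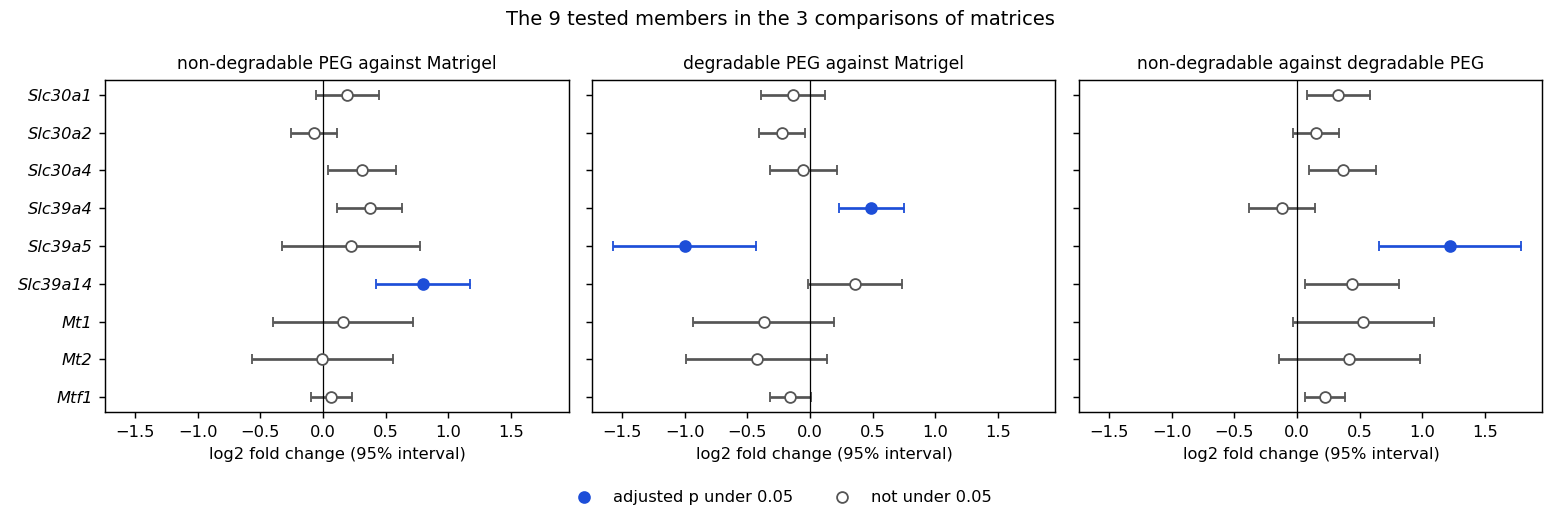
Log2 fold change (x axis) of the 9 tested members in the 3 comparisons, with 95% intervals from the edgeR fit, and filled points for an adjusted p under 0.05. The filled points are Slc39a14 at 0.80 in non-degradable PEG against Matrigel, Slc39a4 at 0.49 and Slc39a5 at -0.999 in degradable PEG against Matrigel, and Slc39a5 at 1.22 between the PEG gels.

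Among the importers, Slc39a14 had the clearest change. It codes for ZIP14, a plasma membrane importer of zinc, manganese and iron (ENSMUSG00000022094, chromosome 14, 70303469 to 70351425). Its level was 282.6, 245.8 and 378.6 CPM in non-degradable PEG, 204.2, 193.4 and 272.5 CPM in degradable PEG, and 149.1, 175.3 and 198.1 CPM in Matrigel. Every non-degradable PEG library was above every Matrigel library, while the degradable PEG libraries overlapped with both other groups. It rose in non-degradable PEG against Matrigel with a log2 fold change of 0.80 ± 0.17 (SE, edgeR adjusted p = 0.00992), and it was called under all 16 alternatives, with log2 fold changes of 0.60 to 0.92. Degradable PEG against Matrigel gave 0.36 ± 0.17 (adjusted p = 0.203), and non-degradable against degradable PEG gave 0.44 ± 0.17 (adjusted p = 0.278, 95% interval 0.06 to 0.81), so a difference between the PEG gels was not shown by this fit. With the replicate number as a block, edgeR called both (adjusted p = 0.0241 and 0.0317), though the labels give equal numbers no stated meaning.

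Slc39a4 codes for ZIP4, the importer on the gut side of enterocytes whose loss in people causes the zinc deficiency acrodermatitis enteropathica (ENSMUSG00000063354, chromosome 15, 76612383 to 76617384). It had 64.2, 61.7 and 74.6 CPM in non-degradable PEG, 63.0, 80.8 and 73.9 CPM in degradable PEG, and 43.8, 54.0 and 57.0 CPM in Matrigel. Both PEG gels lay above Matrigel without overlap, and they overlapped with each other. The rise in degradable PEG against Matrigel was 0.49 ± 0.12 (SE, edgeR adjusted p = 0.0214), and it was lost without Matrigel replicate 1 (adjusted p = 0.075), degradable PEG replicate 2 (0.0683) or degradable PEG replicate 3 (0.0634). In non-degradable PEG against Matrigel the value was 0.37 ± 0.12 and missed the threshold (adjusted p = 0.0538). With the replicate number as a block, it was 0.38 (adjusted p = 0.0123). The PEG gels differed by -0.12 (adjusted p = 0.668), with a 95% interval of -0.38 to 0.14.

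Slc39a5 codes for ZIP5, an importer on the blood side of the intestinal epithelium (ENSMUSG00000039878, chromosome 10, 128395931 to 128401229). Its level was 17.5, 12.8 and 16.5 CPM in non-degradable PEG, 6.81, 6.26 and 6.98 CPM in degradable PEG, and 20.2, 8.67 and 11.3 CPM in Matrigel. The degradable PEG libraries lay close together and below every library of the other 2 matrices. It fell in degradable PEG against Matrigel, with a log2 fold change of -0.999 ± 0.259 (SE, edgeR adjusted p = 0.0285). Without Matrigel replicate 1, the highest library, this was -0.58 (adjusted p = 0.061), and the call was also lost without degradable PEG replicate 2 (0.0901) or 3 (0.0705). Non-degradable PEG was higher than degradable PEG by 1.22 ± 0.26 (adjusted p = 0.049). That call sat at the threshold and was lost without any 1 of the 6 PEG libraries (adjusted p = 0.0604 to 0.207) and without Matrigel replicate 3 (0.0694), while the log2 fold change stayed between 1.13 and 1.34 in all 16 alternatives. Non-degradable PEG against Matrigel gave 0.22 ± 0.25 (adjusted p = 0.58), and 0.64 without Matrigel replicate 1 (adjusted p = 0.0352).

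Enterocyte markers moved in both comparisons in which Slc39a5 was called, and also in the comparison in which it was not. In non-degradable PEG against Matrigel, 3 of 9 rose (Alpi, Apoa1 and Vil1) and 2 fell (Anpep and Fabp2), beside 9.71% and 7.13% of all genes. In degradable PEG against Matrigel, 4 of 9 fell (edgeR adjusted p from 0.000743 to 0.0175) and 1 rose, beside 4.79% and 7.42% of all genes. Those that fell were Sis, by 2.31 on the log2 scale, Fabp1, by 1.87, Fabp2, by 1.39, and Anpep, by 0.97, and Vil1 was higher by 0.29 (adjusted p = 0.0402). Between the PEG gels, 4 of 9 were higher in non-degradable than in degradable PEG (edgeR quasi-likelihood test, adjusted p from 0.0147 to 0.0202) and 0 were lower (unadjusted p under 0.05 for 7 higher and 0 lower, DESeq2 calls for 5 higher and 0 lower). Of all genes, 0.814% were called higher and 0.464% lower there. Fabp1, a fatty acid binding protein, averaged 32.7 ± 10.3 CPM in non-degradable PEG and 4.54 ± 1.83 CPM in degradable PEG, and Sis, the brush border sucrase-isomaltase, averaged 37.1 ± 12.6 CPM in non-degradable PEG and 6.97 ± 2.995 CPM in degradable PEG (SD, n = 3 each). Alpi and Apoa1 were the other two. The summed level of the list was 981 to 1225 CPM in non-degradable PEG against 924.8 to 979.1 CPM in degradable PEG, most of it Vil1, which averaged 641 CPM in each. The 4 markers of pancreatic acinar cells, from another tissue rich in Slc39a5, summed to 8.46 to 11.2 CPM in non-degradable PEG, 7.91 to 10.8 CPM in degradable PEG and 5.04 to 8.30 CPM in Matrigel. Nearly all of this was Cela1, which averaged 9.60 ± 1.43 CPM in non-degradable PEG, 9.30 ± 1.41 CPM in degradable PEG and 6.57 ± 1.65 CPM in Matrigel (SD, n = 3 each). Cpa1 and Prss1 were at 0 in every library, and Cel was at most 0.0526 CPM. The part of the enterocyte markers in the differences of Slc39a5 was not tested.

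The exporters other than Slc30a10 were not called in any of the 3 comparisons. Slc30a1 codes for ZnT1, the zinc exporter of the plasma membrane (ENSMUSG00000037434, chromosome 1, 191906767 to 191913247). It had 42.5, 43.0 and 47.1 CPM in non-degradable PEG, 35.2, 31.4 and 38.9 CPM in degradable PEG, and 45.8, 36.4 and 33.95 CPM in Matrigel. Non-degradable PEG lay above degradable PEG without overlap, and Matrigel overlapped with both. The log2 fold change was 0.19 ± 0.12 in non-degradable PEG against Matrigel (edgeR adjusted p = 0.274, 95% interval -0.06 to 0.45), -0.14 ± 0.12 in degradable PEG against Matrigel (0.488) and 0.33 ± 0.12 between the PEG gels (0.227).

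Slc30a4 codes for ZnT4, which loads zinc into vesicles (ENSMUSG00000005802, chromosome 2, 122681233 to 122702663). It had 145, 156 and 176 CPM in non-degradable PEG, 124.5, 100.5 and 146 CPM in degradable PEG, and 121, 130 and 135 CPM in Matrigel. All non-degradable PEG libraries were above all Matrigel libraries, with a log2 fold change of 0.31 ± 0.12 (edgeR adjusted p = 0.102). With the replicate number as a block it was 0.31 (adjusted p = 0.0385). Slc30a2 codes for ZnT2, which fills the zinc-rich granules of Paneth cells in mice (ENSMUSG00000028836, chromosome 4, 134343181 to 134354484). It had 96.0, 87.8 and 86.2 CPM in non-degradable PEG, 79.6, 82.2 and 81.6 CPM in degradable PEG, and 102, 82.8 and 99.5 CPM in Matrigel. Its log2 fold change was -0.07 ± 0.08 in non-degradable PEG (adjusted p = 0.582, 95% interval -0.26 to 0.11) and -0.22 ± 0.08 in degradable PEG (adjusted p = 0.109), both against Matrigel. Of the 9 Paneth markers, 7 were called lower than in Matrigel in non-degradable PEG, beside 7.13% of all genes. In degradable PEG 7 were lower and 1 was higher (Mmp7), beside 4.79% and 7.42% of all genes. Lyz1, the lysozyme of Paneth granules, fell by 2.58 on the log2 scale in non-degradable PEG (adjusted p = 0.000628) and by 2.97 in degradable PEG (0.000359).

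The metallothioneins were the most abundant members and moved as a pair. Mt1 (ENSMUSG00000031765, chromosome 8, 94179082 to 94180327) had 674, 467 and 606 CPM in non-degradable PEG, 415, 392 and 404 CPM in degradable PEG, and 813.5, 352 and 400.2 CPM in Matrigel. Mt2 (ENSMUSG00000031762, chromosome 8, 94172664 to 94173568) had 605, 457.5 and 515 CPM in non-degradable PEG, 404, 387 and 389 CPM in degradable PEG, and 831, 339.9 and 415 CPM in Matrigel. Both genes were nearly flat over the degradable PEG libraries, and both were highest of all in Matrigel replicate 1. Mt2 had 0.849 to 1.04 reads per Mt1 read over the 9 libraries.

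No comparison of the metallothioneins passed the test. In non-degradable PEG against Matrigel, Mt1 gave a log2 fold change of 0.16 ± 0.26 (edgeR adjusted p = 0.711) and Mt2 gave -0.01 ± 0.26 (0.988). This rested on Matrigel replicate 1: without it, Mt1 was 0.63 (adjusted p = 0.0158) and Mt2 was 0.47 (0.0351), and both were then called higher in non-degradable PEG. In degradable PEG against Matrigel, Mt1 gave -0.37 ± 0.26 (0.39) and Mt2 gave -0.43 ± 0.26 (0.318), and without that library the values were 0.10 (0.711) and 0.06 (0.822). Between the PEG gels, Mt1 gave 0.53 ± 0.26 (0.367) and Mt2 gave 0.42 ± 0.26 (0.475), with every non-degradable PEG library above every degradable one. The sum of both averaged 1108 ± 178 CPM in non-degradable PEG, 797 ± 19.9 CPM in degradable PEG and 1050 ± 518 CPM in Matrigel (SD, n = 3 each). An exact 2-sided permutation test of the sum gave p = 0.9 for non-degradable PEG against Matrigel, 0.8 for degradable PEG against Matrigel and 0.1 between the PEG gels, the smallest that 3 against 3 libraries allow.

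**Figure D3:**
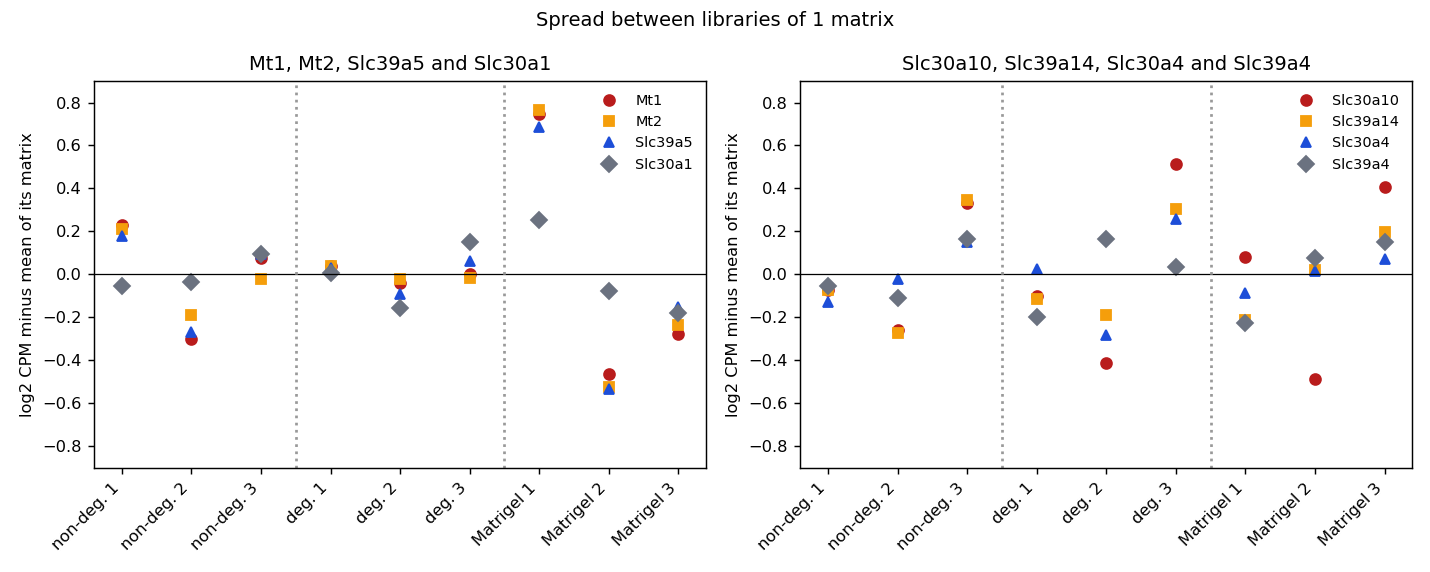
Log2 CPM of 8 members in each library minus the mean of its matrix (y axis), for the 9 libraries (x axis, replicates 1 to 3 of each matrix, dotted lines between matrices). Mt1, Mt2 and Slc39a5 lie together in each library, from about 0.69 to 0.76 above the mean in Matrigel replicate 1 to 0.47 to 0.54 below it in replicate 2. Slc30a10, Slc39a14 and Slc30a4 are highest in replicate 3 of each matrix.

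The spread within a matrix was shared by some members. In Matrigel replicate 1, Mt1 was 0.74, Mt2 0.76 and Slc39a5 0.69 above the mean log2 CPM of the matrix, while Slc30a1 was 0.25 above it. In Matrigel replicate 2, Mt1 was -0.47, Mt2 -0.53 and Slc39a5 -0.54 from that mean. The Paneth markers summed to 1692 CPM in Matrigel replicate 1, 846.4 CPM in replicate 2 and 1268 CPM in replicate 3, and the enterocyte markers to 1006 CPM in replicate 1, 905.2 CPM in replicate 2 and 923.4 CPM in replicate 3. The goblet markers summed to 1045 CPM in replicate 1, 585.7 CPM in replicate 2 and 573.1 CPM in replicate 3, and the enteroendocrine markers to 147 CPM in replicate 1, 88.4 CPM in replicate 2 and 109 CPM in replicate 3. The mesenchymal markers went the other way, with 124.3 CPM in replicate 1, 246.7 CPM in replicate 2 and 272.8 CPM in replicate 3. Nearly all of this sum was Vim, which averaged 208.8 CPM in Matrigel. Matrigel replicate 1, where Mt1, Mt2 and Slc39a5 were highest, thus stood apart on several lists, and their part in the spread was not tested. Slc30a10, Slc39a14 and Slc30a4 were highest in replicate 3 of each matrix. That replicate was above the mean by 0.33, 0.35 and 0.15 in non-degradable PEG, by 0.52, 0.30 and 0.26 in degradable PEG, and by 0.41, 0.20 and 0.07 in Matrigel. In Matrigel the lowest was replicate 2 for Slc30a10 and replicate 1 for Slc39a14 and Slc30a4, and the Slc30a10 values there rest on 11, 9 and 16 reads.

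Mtf1, the transcription factor that senses zinc, differed little between libraries (ENSMUSG00000028890, chromosome 4, 124802104 to 124849800). It had 40.9, 42.0 and 44.7 CPM in non-degradable PEG, 37.4, 34.2 and 37.8 CPM in degradable PEG, and 39.7, 43.4 and 39.0 CPM in Matrigel. The coefficient of variation was 4.50% in non-degradable PEG, 5.42% in degradable PEG and 5.77% in Matrigel, and the degradable PEG libraries were below those of both other matrices. Its log2 fold change was 0.06 ± 0.07 in non-degradable PEG against Matrigel (edgeR adjusted p = 0.589), -0.16 ± 0.07 in degradable PEG against Matrigel (0.195) and 0.22 ± 0.07 between the PEG gels (0.205). Mtf1 shares 721 exon bases with the gene 1110065P20Rik on the opposite strand, which had 14.8 to 18.5 CPM. Likewise Mt2 shares 432 exon bases with Gm45774, Slc30a1 shares 468 with 1700034H15Rik and Slc30a4 shares 130 with 4930417H01Rik. Of the 50-base stretches of these members, 45.8% for Mt2, 8.01% for Slc30a1, 7.55% for Mtf1 and 1.48% for Slc30a4 also occur in the partner. Mt2 had the largest such share of the 10 members, and how the strand setting bears on its level and its place beside Mt1 was not tested. No gene in the count tables matched the symbol Gm45774, so it has no level here. 1700034H15Rik had 1.02 to 2.19 CPM and 4930417H01Rik had at most 0.183 CPM.

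Levels of different genes were compared per kilobase of merged exons. For Mt1 the merged exons, 1246 bases, cover its whole annotated span, and for Mt2 they are 588 bases. Mt2 had 0.849 to 1.04 reads per Mt1 read, so the order of these 2 genes per kb rests on the lengths used. In non-degradable PEG, Mt2 averaged 894 ± 126 and Mt1 467 ± 84.9 CPM per kb, followed by Slc30a4 (29.1 ± 2.90), Slc39a14 (28.7 ± 6.50), Slc30a2 (25.3 ± 1.48), Slc39a4 (21.5 ± 2.19), Slc30a1 (8.43 ± 0.484), Slc39a5 (7.0 ± 1.10), Mtf1 (4.78 ± 0.215) and Slc30a10 (3.46 ± 0.7455; SD, n = 3). Slc30a4 and Slc39a14 overlapped, as did Slc39a14 and Slc30a2, and other neighbours did not. In degradable PEG, Slc39a4, Slc30a2, Slc30a4 and Slc39a14 lay between 21.2 and 23.4 CPM per kb on average and overlapped in that order, and Mtf1 at 4.09 lay above Slc39a5 at 3.00. In Matrigel, Mt2 and Mt1 overlapped, as did Slc30a2 with Slc30a4, Slc39a4 with Slc39a14, Slc30a1 with Slc39a5 and Slc39a5 with Mtf1. Slc30a10 was the lowest of the 10 in every matrix, with 1.05 ± 0.357 CPM per kb in degradable PEG and 0.0470 ± 0.0140 CPM per kb in Matrigel.

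**Figure D4:**
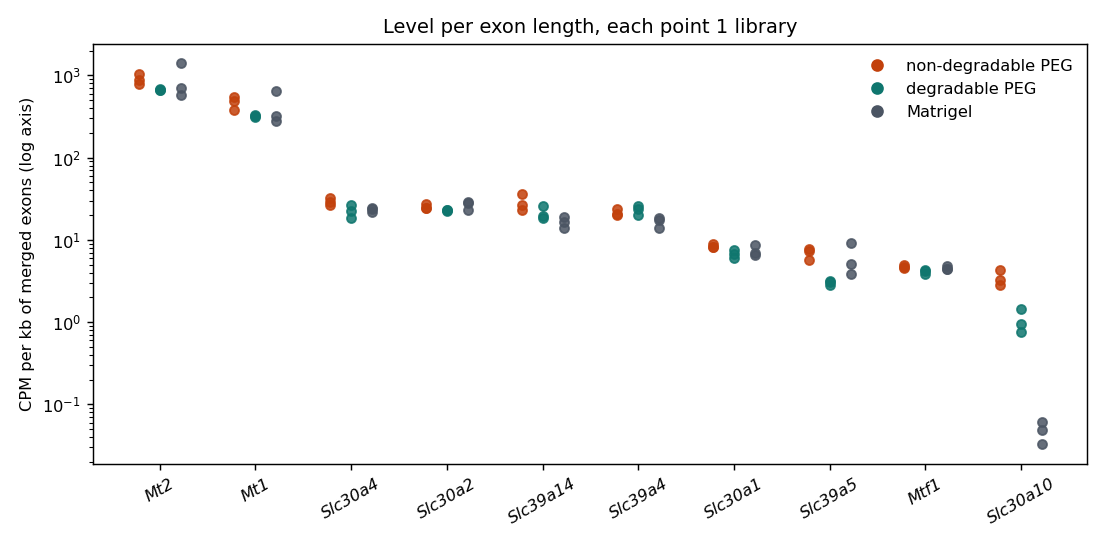
CPM per kilobase of merged exons (y axis, log scale) for the 10 genes (x axis, by mean level), with 1 point per library and non-degradable PEG, degradable PEG and Matrigel from left to right at each gene. Mt2 and Mt1 stand above the transporters in every library, and Slc30a10 is lowest in each matrix, at 2.84 to 4.29 in non-degradable PEG, 0.763 to 1.45 in degradable PEG and 0.0325 to 0.0604 in Matrigel.

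The other 41 genes of zinc, manganese, iron and copper handling were read from lists by family and textbook role, and 38 of them were tested. In non-degradable PEG against Matrigel 3 rose and 3 fell (15.8% of those tested, beside 16.8% of all genes), with a median log2 fold change of 0.04. In degradable PEG against Matrigel 1 rose and 2 fell (7.89% beside 12.2%, median -0.04), and between the PEG gels 1 was higher in non-degradable PEG (2.63% beside 1.28%, median 0.06). With the replicate number as a block, 13 of the 38 were called in non-degradable PEG against Matrigel, 7 higher and 6 lower, and 3 members were called (Slc39a14, Slc39a4 and Slc30a4). Calls rose over all genes too, to 3877 of 14870 with the block from 2504 without it.

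In the other SLC30 exporters, 0 of 5 tested were called by the edgeR test in any comparison, and Slc30a8 had no count. At an unadjusted p under 0.05 there was 1 in non-degradable PEG against Matrigel, 0 in degradable PEG against Matrigel and 2 between the PEG gels, and DESeq2 called 0 in each. Of the other SLC39 importers, 2 of 10 tested fell in non-degradable PEG against Matrigel (beside 7.13% of all genes) and 2 fell in degradable PEG (beside 4.79%). Slc39a12 had no count. Slc39a8, which codes for ZIP8, the closest relative of ZIP14 and an importer of manganese and zinc, had 57.3, 56.1 and 50.6 CPM in non-degradable PEG, 53.6, 42.8 and 45.4 CPM in degradable PEG, and 86.3, 64.3 and 68.3 CPM in Matrigel. All PEG libraries were below all Matrigel libraries, the opposite direction to Slc39a14. The log2 fold change against Matrigel was -0.63 in degradable PEG (adjusted p = 0.00556, called in all 16 alternatives) and -0.42 in non-degradable PEG (adjusted p = 0.033). The non-degradable PEG call was lost without any 1 of its own libraries (0.062 to 0.124) or without Matrigel replicate 1 (0.118). Slc39a6 fell by 0.21 on the log2 scale in non-degradable PEG (adjusted p = 0.0429), lost in 10 of 16 alternatives, and Slc39a9 fell by 0.34 in degradable PEG (0.0171), lost without Matrigel replicate 1 (0.0626) or 3 (0.0541).

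Of the 4 other manganese transport genes, 1 fell (beside 7.13% of all genes in the same comparison), the Golgi calcium and manganese pump Atp2c2. It had 59.9, 64.7 and 64.3 CPM in non-degradable PEG against 75.3, 75.75 and 84.7 CPM in Matrigel, a log2 fold change of -0.32 (edgeR adjusted p = 0.0234), lost without Matrigel replicate 3 (0.0798), non-degradable PEG replicate 1 (0.0841) or 3 (0.0624). Its relative Atp2c1, the Golgi gene Tmem165 and the metal ion importer Slc11a2 were not called. Mt3, a metallothionein known mainly from brain, averaged 0.343 ± 0.0931 CPM in non-degradable PEG, 0.424 ± 0.126 CPM in degradable PEG and 0.199 ± 0.0283 CPM in Matrigel (SD, n = 3 each), and was not called. Mt4, known from squamous epithelium, had too few counts to be tested. Neither came near the level of Mt1 and Mt2.

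Iron handling genes held the other calls. Of the 10, 3 were higher in non-degradable PEG against Matrigel (beside 9.71% of all genes) and 1 was higher in degradable PEG (beside 7.42%). Hmox1, the heme-degrading enzyme, had 22.6, 20.4 and 29.4 CPM in non-degradable PEG, 19.9, 25.4 and 27.1 CPM in degradable PEG, and 12.8, 14.6 and 11.98 CPM in Matrigel, with log2 fold changes of 0.88 in each PEG gel (edgeR adjusted p = 0.00326 and 0.0037). Slc40a1, the iron exporter ferroportin, which can also carry manganese, had 21.3, 21.7 and 29.0 CPM in non-degradable PEG, 13.5, 12.1 and 15.2 CPM in degradable PEG, and 14.6, 17.5 and 12.2 CPM in Matrigel. It rose by 0.70 in non-degradable PEG against Matrigel (adjusted p = 0.0122, lost without non-degradable PEG replicate 3 at 0.0547) and by 0.82 against degradable PEG (0.0351, lost without any 1 of 5 PEG libraries at 0.0523 to 0.157). Cybrd1, the ferric reductase of the duodenal brush border, had 8.11, 2.92 and 9.60 CPM in non-degradable PEG. It had 4.29, 2.08 and 3.93 CPM in degradable PEG, and 1.54, 2.32 and 1.87 CPM in Matrigel. The log2 fold change in non-degradable PEG against Matrigel was 1.85 (edgeR adjusted p = 0.0107). The degradable PEG libraries overlapped with both other groups, and neither of their comparisons was called (adjusted p = 0.212 against Matrigel and 0.271 between the PEG gels). Of 9 copper handling genes, 0 were called in any comparison by edgeR. At an unadjusted p under 0.05 there was 1 in each PEG gel against Matrigel and 4 between the PEG gels, and DESeq2 called 1, in non-degradable PEG against Matrigel.

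The genes whose profiles over the 9 libraries were most like those of Slc30a10 and Mt1 were taken by the smallest root mean square difference of log2 CPM, each centred on its own mean, among the 10648 genes that averaged 5 CPM or more. For Slc30a10 these were Sprr2a3 (0.56), Slc16a3 (0.58), 2610528A11Rik (0.68), Ankrd37 (0.995) and Msln (1.06). Sprr2a3 averaged 130.3 ± 34.9 CPM in non-degradable PEG, 71.4 ± 16.3 CPM in degradable PEG and 2.07 ± 0.633 CPM in Matrigel, and Slc16a3 averaged 254 ± 89.7 CPM in non-degradable PEG, 147 ± 64.1 CPM in degradable PEG and 4.53 ± 2.44 CPM in Matrigel (SD, n = 3 each). For Mt1 they were Mt2 (0.08), Kcne3 (0.17), Ccl25 (0.18), Sult1c2 (0.18) and Bhlha15 (0.19), so Mt2 was the closest of all candidates. Slc30a1 took place 30 for Mt1 (0.27) and place 2541 for Slc30a10 (2.48). These are descriptions over libraries that share matrix and depth. A gene whose level differs little between libraries is by this measure far from Slc30a10, which was chosen for its wide range.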

How the data were processed

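The input was 1 table of gene counts per library, whole numbers deposited by the authors. Cutadapt 1.3, STAR 2.4.2a and HTSeq 0.6.1 were used with the mouse build GRCm38, per the submitters' processing notes. The sources used here do not give the annotation or the strand setting of the counting. The 5 tally rows of each table were set aside: reads without a feature were 7.29% to 11.2% of a library and ambiguous reads 1.09% to 1.16%. Symbols, coordinates and merged exon lengths came from GENCODE M21 and matched 46005 of 46517 identifiers.

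Members, lists and tests were chosen with earlier results of these data known. Named were all members, the called genes of the metal lists (at most 6 a comparison) and the 5 genes most like Slc30a10 and Mt1. Cell type markers covered stem, Paneth, goblet, enteroendocrine, tuft, enterocyte, mesenchymal, blood and pancreatic acinar cells. Goblet markers summed to 189.4 to 256.7 CPM in non-degradable PEG, 135.3 to 198.6 CPM in degradable PEG and 573.1 to 1045 CPM in Matrigel. Enteroendocrine markers summed to 16.4 to 23.3 CPM in non-degradable PEG, 23.6 to 34.8 CPM in degradable PEG and 88.4 to 147 CPM in Matrigel. Tuft markers summed to 3.03 to 3.53 CPM in non-degradable PEG, 2.97 to 3.71 CPM in degradable PEG and 7.79 to 9.63 CPM in Matrigel. Mesenchymal markers summed to 83.3 to 117.7 CPM in non-degradable PEG, 92.01 to 157.6 CPM in degradable PEG and 124.3 to 272.8 CPM in Matrigel. Most of this was Vim, which averaged 89.6 CPM in non-degradable PEG, 125.5 CPM in degradable PEG and 208.8 CPM in Matrigel. Col3a1 was at 0 in every library.

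All 9 libraries entered 1 edgeR 4.0.16 quasi-likelihood fit in R 4.3.3, with TMM scaling (trimmed mean of M values), filterByExpr and a mean for each matrix, leaving 6 residual degrees of freedom. An adjusted p under 0.05 was called, and the standard error was the log2 fold change over the root of the F statistic. CPM used the TMM-scaled library sizes, with a prior count of 2 for log CPM in profiles. Alternatives were other scalings, other filters, DESeq2 1.42.0, fits of the compared groups only, a replicate block and leaving out each library. The fit was tested on simulated data. No 2 libraries were duplicates: the chi-square per gene between libraries of a matrix was 10.2 to 55.6.

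Equal replicate numbers have no stated meaning in the labels. Deviations from the matrix means correlated between equal numbers at 0.176 to 0.331 for non-degradable PEG and Matrigel, over 0.1 in 3 of 3 pairs, so blocked values stand beside that comparison where they change a call. For Slc39a14 they are also given for the other comparisons. The other matrix pairs reached 0.1 in 2 of 3, at 0.071 to 0.258 for degradable PEG and Matrigel and 0.02 to 0.511 between the PEG gels. Unequal numbers gave -0.257 to 0.039 for non-degradable PEG and Matrigel and -0.238 to 0.039 for degradable PEG and Matrigel. Between the PEG gels they gave -0.454 to 0.257. Deviations from a mean offset each other within a matrix, so values for equal and unequal numbers are not independent.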

Additional observations from a re-analysis of the deposited data

How the results depend on the processing

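The rise of Slc39a14 in non-degradable PEG against Matrigel was called under all 16 alternatives, and Slc30a10 kept its direction in the 15 that could give a value (its mean is below 10 CPM, so that filter removed it). Other calls of members depended on single libraries, as given above. With the replicate block, 3877, 2783 and 542 genes were called in non-degradable PEG against Matrigel, degradable PEG against Matrigel and non-degradable against degradable PEG. The members called were 3, 3 and 2 in the same order. In the pairs whose numbers are not shown to be paired, the block gave Slc39a14 adjusted p = 0.0241 (0.35, degradable PEG against Matrigel) and 0.0317 (0.43, between the PEG gels) by edgeR, and 7 and 3 other metal genes were called, beside 13 for non-degradable PEG against Matrigel. In these 2 comparisons the block changed no other call of a member. A filter at a mean of 10 CPM called 1511, 948 and 91 genes, and 0 members between the PEG gels, where 1 had been called by edgeR and Slc39a5 was at adjusted p = 0.0649. No filter and DESeq2 called 521 and 511 genes between the PEG gels, and 2 other metal genes each. In non-degradable PEG against Matrigel they called 2 members each, beside 2968 of 25392 and 3111 of 16529 genes. In degradable PEG against Matrigel they called 5 other metal genes each, beside 2242 of 25392 and 2257 of 17021 genes. Fits of the compared groups only called 3 members and 10 other metal genes in non-degradable PEG against Matrigel, beside 3367 of 14618 genes.

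Leaving out 1 library at a time gave 1189 to 3247, 1086 to 2395 and 19 to 242 genes, 1 to 4, 0 to 3 and 0 to 1 members, and 2 to 9, 2 to 6 and 0 to 1 other metal genes. For non-degradable PEG against Matrigel the count of genes was 1189 without non-degradable PEG replicate 3, 1656 without its replicate 1, and 1452 and 1636 without Matrigel replicates 1 and 2. For degradable PEG against Matrigel it was 1086 and 1177 without Matrigel replicates 1 and 3, and 1178 without degradable PEG replicate 3. Between the PEG gels it was 28 and 124 without non-degradable PEG replicates 1 and 2, and 117 and 19 without degradable PEG replicates 1 and 2. The log2 ratio of the summed metallothioneins ranged from -0.15 to 0.56 for non-degradable PEG against Matrigel, from -0.63 to 0.08 for degradable PEG against Matrigel and from 0.36 to 0.59 between the PEG gels. It reversed for non-degradable PEG against Matrigel without Matrigel replicate 2 (-0.15), Matrigel replicate 3 (-0.076) or the first replicate of that PEG gel (-0.039), and for degradable PEG against Matrigel without Matrigel replicate 1 (0.081).

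Log2 fold changes of uncalled members near 0 changed sign. In non-degradable PEG against Matrigel, Mt2 was 0.013 with upper-quartile scaling, 0.014 with the 10 CPM filter and 0.065 with the block. When single libraries were left out, it ran from -0.244 to 0.473, Mt1 from -0.059 to 0.627 and Slc39a5 from -0.014 to 0.636. In degradable PEG against Matrigel, leaving out single libraries gave -0.582 to 0.103 for Mt1, -0.655 to 0.061 for Mt2, -0.224 to 0.001 for Slc30a1 and -0.193 to 0.076 for Slc30a4. The causes were not tested. The alternatives for the other metal genes were chosen after seeing the data. The summed metallothioneins had an SD of 518 CPM in Matrigel, and the part of depth in this spread was not tested.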

Other observations

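With a minimum mean of 20 CPM in place of 5, the genes most like Slc30a10 were Sprr2a3, Slc16a3, Bnip3 (1.11), Egr1 (1.13) and Zfp36 (1.15), of which 2 were in the first list of 5. Bnip3, a mitochondrial protein of the BCL2 family, averaged 125 ± 40.3 CPM in non-degradable PEG, 67.9 ± 30.2 CPM in degradable PEG and 11.7 ± 1.90 CPM in Matrigel. Egr1, an immediate early transcription factor, averaged 1071 ± 491 CPM in non-degradable PEG, 1439 ± 278 CPM in degradable PEG and 70.45 ± 34.2 CPM in Matrigel (SD, n = 3 each). The mean of Egr1 was thus lower in non-degradable than in degradable PEG, unlike that of Slc30a10. With the same minimum, the genes most like Mt1 were Mt2, Ccl25, Smim24 (0.20), Abcg8 (0.225) and Tkfc (0.23), of which 2 were in the first list.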
